A study of Homo sapiens with 8 samples.

Results

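Direct target genes of the tumour suppressor p53 were followed in HaCaT keratinocytes under psoriatic cytokine stimulation. The list holds 32 genes and leaves out CDKN1A and the BCL2 family, and all 32 were found by gene identifier among the 17131 genes of the deposited table. The rule uses gene names and no expression value, but the list was chosen with earlier results of these data known. A total of 8 RNA sequencing libraries were compared, 4 titled M5_O5 and 4 titled M5. All 8 came from unmodified HaCaT cells, an established human keratinocyte line, treated for 24 h with the M5 cocktail (oncostatin M, TNF-α, IL-1α, IL-22 and IL-17A). The comparison in the study is with or without OTS514, an inhibitor of the kinase TOPK (gene PBK) that was given before and together with the cytokines. The titles and the treatment entered for each library name opposite groups as the OTS514 cultures: the M5_O5 libraries are entered as untreated and the M5 libraries as TOPK inhibitor. Groups are therefore named by title here, every difference is given as M5_O5 over M5, and which group received OTS514 is not settled. Cultures without M5 were not analysed here. The libraries are cultures of a single line, and nothing in the labels says that they came from separate experiments, so p-values measure the spread between these samples only.

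p53 is a transcription factor that is stabilised after DNA damage and other stress and binds a recurring decamer in the DNA of its target genes. Its targets restrain the cell cycle, repair DNA, control cell death, adjust metabolism and, through MDM2 and PPM1D, shut p53 off again. The p53 relative p63, which basal keratinocytes express mainly in the ΔN form that lacks the amino-terminal transactivation domain, recognises much the same DNA sequence. Many p53 targets also have other inducers, such as NF-κB, p38 and the stress factor ATF4.

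The p53 decamer can be read directly from promoters of these genes. RefSeq promoter windows of the GRCh38.p14 assembly, from 250 bases before to 50 bases after a gene's start, were at hand for 26 of the 32 genes (38 windows) and were searched on both strands for the p53 consensus decamer of 10 bases, with its core C and G fixed. DDB2 and MDM2 are shown because theirs held decamers in pairs, the arrangement that a p53 tetramer binds, and PLK2 and AEN because they held a single decamer without mismatch and changed between the groups. Capitals mark the decamers. The DDB2 line is chr11:47214975-47215003, plus strand, with the first decamer 5 bases after the start and 1 base between the decamers. The MDM2 line is chr12:68808918-68808947, plus strand, 101 or 94 bases before the start of the window's transcript, with adjoining decamers that hold 2 mismatches in all. The PLK2 line is chr5:58460199-58460228, minus strand, and the AEN line is chr15:88621296-88621325, plus strand.
DDB2: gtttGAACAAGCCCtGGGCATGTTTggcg
MDM2: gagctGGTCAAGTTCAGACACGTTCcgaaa
PLK2: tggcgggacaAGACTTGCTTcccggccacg
AEN: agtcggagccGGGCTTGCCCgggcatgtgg
Decamers without mismatch also lay in windows of ABHD4, FAS, FDXR and SESN1, so that 7 of 26 target genes (26.9%) had at least 1, against 2202 of 27305 genes (8.06%) with a promoter window. A pair with at most 1 mismatch in each decamer, separated by at most 13 bases, was present in 2 of 26 (7.69%) and in 2.28% of all genes. Many p53 sites lie in introns or farther upstream, which these windows do not cover. A match is a description of the sequence and does not say that a protein bound there.

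The 32 p53 targets did not move as a block. In the M5_O5 libraries relative to M5, 6 rose (GDF15, GADD45A, PLK2, RRM2B, AEN and TIGAR), 6 fell (NINJ1, PPM1D, MDM2, BTG2, TNFRSF10B and SUSD6), and 18 did not pass the test. EDA2R, a TNF receptor family member, and CMBL, a hydrolase, had 0 to 1 counts in each library and were not tested. The 30 tested thus held 6 higher and 6 lower genes by edgeR's quasi-likelihood test at an adjusted p under 0.05, where 19.5% of all 12434 genes tested were higher and 17.6% lower, so both shares were close to the background. No target gene passed both that test and a 2-fold change, a step reached upward by 2.87% of all genes and downward by 0.33%. The median log2 fold change of the 30 was 0.01, beside 0.01 for all genes tested, and the values ran from -0.48 to 0.98. Of the 30, 15 lay above 0, beside 6437 of all 12434 genes. The groups did not overlap for 8 targets with higher M5_O5 values and for 4 with lower ones, beside 17.8% and 15.8% of all genes. Scaling by library size alone, in place of edgeR's trimmed mean (TMM), moved the median of all genes to 0.13 and gave 11 targets higher and 2 lower. In these bulk libraries, a change in RNA per cell and a change in the share of cells that express a gene cannot be told apart.

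**Figure D1:**
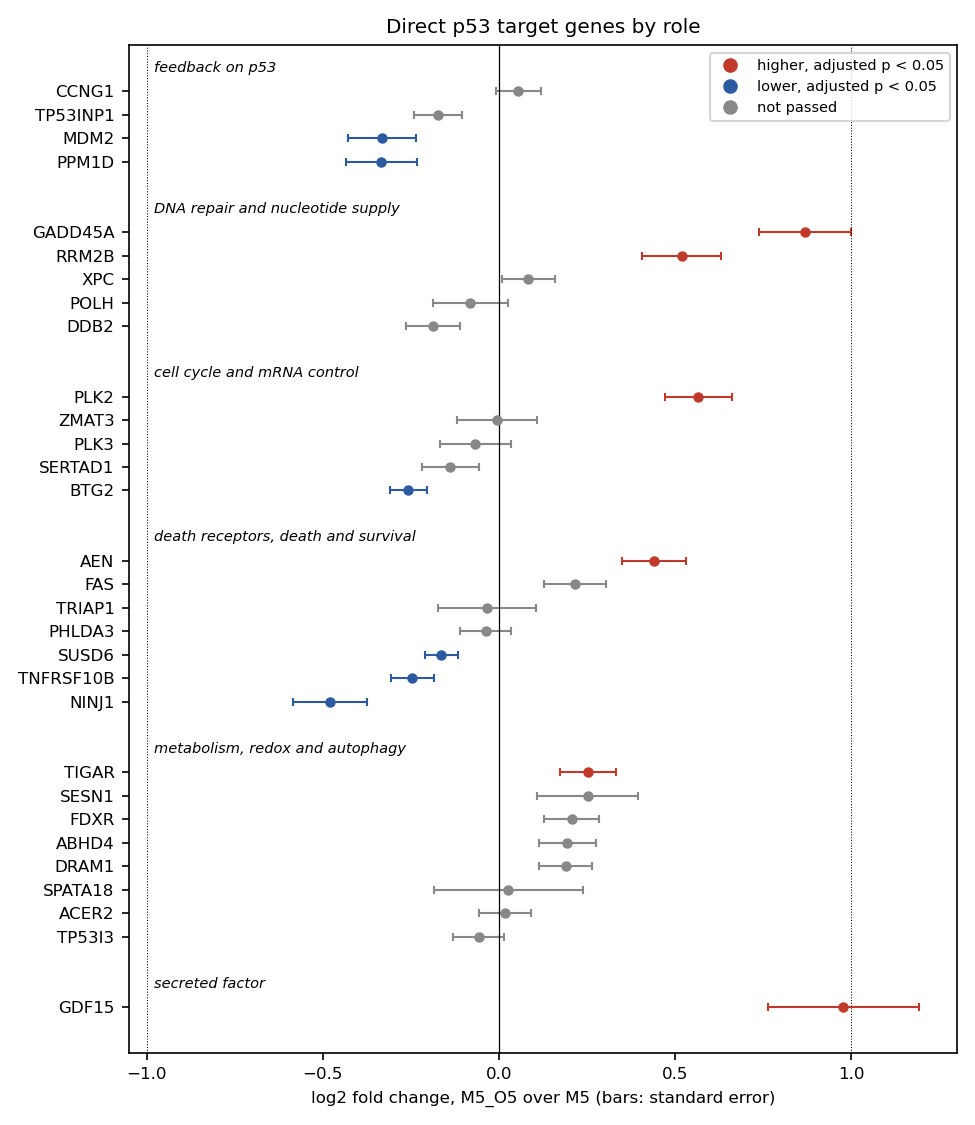
Log2 fold change of M5_O5 over M5 for the 30 target genes tested, grouped by role, with standard errors as bars and dotted lines at a 2-fold change (n = 4 libraries a group). The 6 red genes lay between 0.25 and 0.98, the 6 blue genes between -0.48 and -0.16, and both colours stood side by side in the cell cycle and the death groups.

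Library depth and makeup bear on these values. Total counts ran from 13708055 in M5 replicate 1 to 16922693, and that library also stood farthest from the rest of its group, with a chi-square per gene of 10.3 to 16.5 against 2.03 to 4.06 among the other M5 pairs. In M5_O5, the pairs with replicate 1 gave 7.12 to 11.1 and the other pairs 3.05 to 7.15, so that library stood less clearly apart. Without M5 replicate 1, 8 targets were higher and 7 lower, and without M5_O5 replicate 1 the counts were again 8 and 7. All 11 keratinocyte markers were present. Their summed TPM (a level corrected for transcript length and library size) was 15407 to 18564 in M5_O5 and 17524 to 19175 in M5. In M5_O5, 7 of 11 were lower (63.6%, against 17.6% of all genes) and 0 higher. KRT1 and KRT10 fell past 2-fold (log2 fold changes of -2.04 and -1.04), a step reached downward by 0.33% of all genes. In M5 replicate 1 they were at 90.2 and 69.7 TPM. The other M5 libraries held 13.9 to 31.1 TPM of KRT1 and 19.6 to 24.3 TPM of KRT10, against 8.09 to 13.2 and 12.8 to 23.0 TPM in M5_O5. Endothelial markers summed to 1.14 to 1.52 TPM in M5_O5 and 0.08 to 0.26 in M5, and in M5_O5 nearly all of it was CDH5. Melanocyte markers summed to 1.14 to 1.42 against 0.86 to 1.11 and fibroblast markers to 10.3 to 10.8 against 13.02 to 15.3. Immune cell markers, nearly all CD68, summed to 54.2 to 71.6 against 70.7 to 89.5, and PTPRC was at 0 in every library. The part of these shifts in the results was not tested.

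The genes grouped as feedback on p53 were lower or not different in M5_O5. Of the 4, 2 fell (50%, against 17.6% of all genes) and none rose, with a median log2 fold change of -0.25. The group holds MDM2 and PPM1D, which limit p53, but also TP53INP1, a cofactor of its phosphorylation. MDM2 encodes the ubiquitin ligase that marks p53 for degradation. It measured 123, 108, 99.9 and 127 CPM (counts scaled to the library total, here after TMM) in M5_O5 replicates 1 to 4, and 171, 121, 146 and 140 CPM in M5. In M5, 3 libraries lay above all M5_O5 libraries, and M5 replicate 2 fell within their range. The log2 fold change was -0.33 ± 0.10 (SE, edgeR adjusted p = 0.0142), or 79.4% of the M5 level, and the exact permutation test gave p = 0.0857, where 4 against 4 libraries allow 0.0286 at best. The call was lost with library size scaling (-0.22, edgeR adjusted p = 0.126) and after cyclic loess (-0.23, limma adjusted p = 0.0982). Exons of MDM2 overlap those of the carboxypeptidase M gene on the opposite strand and a processed pseudogene on the same strand, and whether the counting used strand is not stated, so its level carries that uncertainty.

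PPM1D, the phosphatase WIP1 that removes activating phosphates from p53 and from its upstream kinases, measured 7.79, 7.70, 6.87 and 6.77 CPM in M5_O5 and 9.85, 9.34, 8.82 and 8.78 CPM in M5. All 4 M5_O5 libraries lay below all 4 M5 libraries. Its log2 fold change was -0.33 ± 0.10 (edgeR adjusted p = 0.0178), and it missed the threshold without M5_O5 replicate 4 (edgeR adjusted p = 0.0516). CCNG1, a cyclin that recruits phosphatase to MDM2, differed by 0.05 (edgeR adjusted p = 0.533), and TP53INP1, a stress-induced cofactor of p53 phosphorylation, by -0.17 (edgeR adjusted p = 0.0563). With library size scaling or on TPM, no feedback gene passed, although the median of the 4 stayed below 0 under all 18 alternatives (-0.29 to -0.10).

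Of the 5 repair and nucleotide supply genes, 2 rose (40%, against 19.5% of all genes), 0 fell and 3 did not pass. GADD45A, a small stress sensor linked to excision repair, growth arrest and p38 signalling, measured 13.5, 15.8, 19.6 and 18.6 CPM in M5_O5 and 11.2, 8.42, 9.08 and 8.29 CPM in M5. The lowest M5_O5 library was above the highest M5 library. It rose 1.83-fold, a log2 fold change of 0.87 ± 0.13 (edgeR adjusted p = 0.000169). RRM2B, the p53-inducible subunit of ribonucleotide reductase that supplies nucleotides outside S phase, was at 25.3, 20.4, 18.6 and 22.9 CPM in M5_O5 against 18.3, 13.2, 14.5 and 15.01 CPM in M5. The groups did not overlap, though M5 replicate 1 came close to M5_O5 replicate 3. The log2 fold change was 0.52 ± 0.11 (edgeR adjusted p = 0.00267), and 0.61 without M5 replicate 1. The damage-recognition proteins DDB2 and XPC and the bypass polymerase POLH did not pass. DDB2, the gene with the decamer pair printed above, ran from 24.1 to 28.6 CPM in M5_O5 and from 26.9 to 31.9 CPM in M5, a log2 fold change of -0.19 ± 0.08 (edgeR adjusted p = 0.0715). XPC differed by 0.08 and POLH by -0.08.

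Among the 5 cell cycle and mRNA genes, 1 rose and 1 fell (20% each, against 19.5% and 17.6% of all genes). PLK2, a Polo-like kinase of centriole duplication and early G1, measured 81.2, 68.4, 76.5 and 68.8 CPM in M5_O5 and 61.8, 44.0, 46.6 and 47.2 CPM in M5. Every M5_O5 library was above every M5 library, and M5 replicate 1 was the highest of its group. The rise was 1.48-fold, a log2 fold change of 0.57 ± 0.10 (edgeR adjusted p = 0.000437), and 0.68 without M5 replicate 1. BTG2, an antiproliferative cofactor of mRNA deadenylation, moved the other way, from 191, 200, 206 and 187 CPM in M5 to 164, 168, 156 and 168 CPM in M5_O5. The libraries of each group lay close together and the groups did not overlap. The log2 fold change was -0.26 ± 0.05 (edgeR adjusted p = 0.0018). It did not pass on TPM (-0.13 at the weakest). PLK3, another Polo-like kinase of the stress response, SERTAD1, a partner of CDK4 and E2F, and ZMAT3, an RNA-binding protein, did not pass, with log2 fold changes of -0.07, -0.14 and -0.01.

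The death and survival genes included 1 higher (14.3%, against 19.5% of all genes) and 3 lower (42.9%, against 17.6%) of the 7 tested. AEN, an exonuclease that degrades DNA and RNA during apoptosis, measured 15.8, 16.8, 18.5 and 14.7 CPM in M5_O5 and 12.8, 12.4, 11.1 and 12.1 CPM in M5. The groups were apart, and its log2 fold change was 0.44 ± 0.09 (edgeR adjusted p = 0.002). NINJ1, which carries out plasma membrane rupture in dying cells, showed the largest fall of the list. It was at 52.7, 65.8, 65.9 and 56.5 CPM in M5_O5 and at 64.5, 92.5, 87.1 and 91.3 CPM in M5. Only M5 replicate 1 fell among the M5_O5 values. The level in M5_O5 was 71.8% of that in M5, a log2 fold change of -0.48 ± 0.11 (edgeR adjusted p = 0.00283, exact permutation p = 0.0857), and the difference was -0.59 without M5 replicate 1.

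The death receptors TNFRSF10B and FAS differed in sign, and only the former passed. TNFRSF10B, the TRAIL receptor DR5, measured 117, 139, 135 and 137 CPM in M5_O5 and 148, 159, 156 and 163 CPM in M5. No library crossed between the groups, and M5_O5 replicate 1 was the lowest by a wide gap. Its log2 fold change was -0.25 ± 0.06 (edgeR adjusted p = 0.00612), and the call was lost with library size scaling, on TPM and after cyclic loess. FAS, the receptor of FAS ligand, ran from 13.1 to 16.3 CPM in M5_O5 and from 12.1 to 12.996 CPM in M5. These ranges did not overlap, but its log2 fold change of 0.22 ± 0.09 missed the threshold (edgeR adjusted p = 0.0692). The exons of both receptors overlap a neighbour on the opposite strand, RHOBTB2 for TNFRSF10B and ACTA2 for FAS. SUSD6, a membrane protein also known as DRAGO, was at 176, 175, 175 and 177 CPM in M5_O5 and at 196, 199, 193 and 200.2 CPM in M5. The replicates hardly varied and the groups were apart. Its log2 fold change of -0.16 ± 0.05 passed (edgeR adjusted p = 0.0131), but library size scaling reduced it to -0.05 (edgeR adjusted p = 0.436). The call was also lost on both TPM scales, after cyclic loess and without M5 replicate 4 (edgeR adjusted p = 0.0507). PHLDA3, an inhibitor of AKT, and TRIAP1, a mitochondrial survival factor, both differed by -0.04 without passing.

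**Figure D2:**
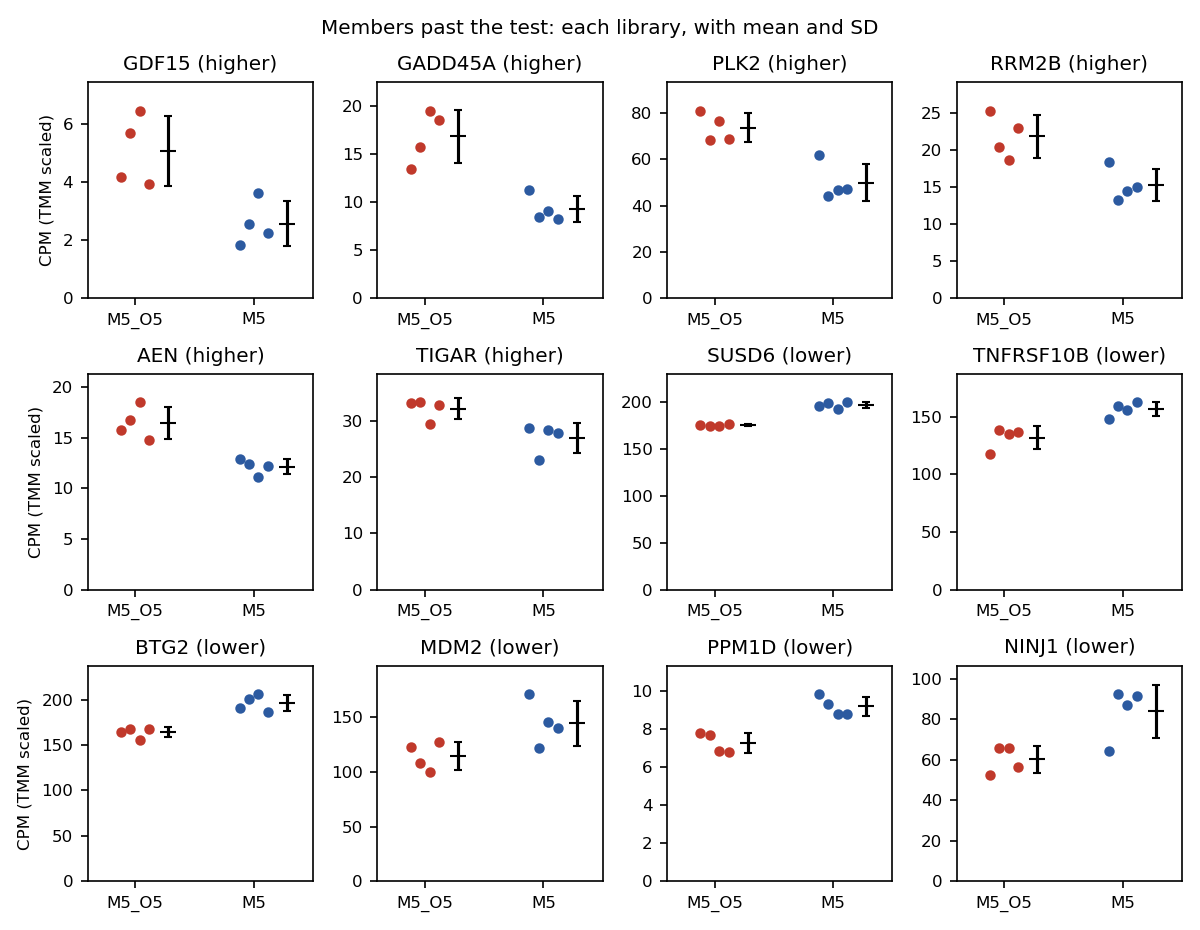
CPM (TMM scaled) of the 12 target genes that passed the test in each of the 4 M5_O5 (red) and 4 M5 (blue) libraries, with the mean and SD beside the points and each axis starting at 0. The groups were apart for 10 of the genes, while M5 replicate 2 for MDM2 and M5 replicate 1 for NINJ1 lay within the M5_O5 range.

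Among the metabolic, redox and autophagy targets, 7 of the 8 tested had a log2 fold change above 0, beside 6437 of all 12434 genes. The median was 0.19, but 1 gene alone passed (12.5% higher, against 19.5% of all genes). TIGAR, a phosphatase that lowers fructose-2,6-bisphosphate and spares NADPH, measured 33.2, 33.4, 29.5 and 32.8 CPM in M5_O5 and 28.8, 23.1, 28.4 and 27.97 CPM in M5. The groups met closely, with M5_O5 replicate 3 just above M5 replicate 1. Its log2 fold change of 0.25 ± 0.08 passed (edgeR adjusted p = 0.0224), but not when M5_O5 replicate 2, M5_O5 replicate 4 or M5 replicate 2 was left out (edgeR adjusted p of 0.0609, 0.0535 and 0.0741). Its exons overlap those of AC008012.1 on the same strand. SESN1, a sestrin that restrains mTORC1, differed by the same 0.25 with a wider error of 0.14 (edgeR adjusted p = 0.187), and passed without M5 replicate 1 (0.39, edgeR adjusted p = 0.0235). FDXR, the reductase that feeds electrons to mitochondrial ferredoxin, ran from 19.5 to 23.1 CPM in M5_O5 and 17.8 to 19.3 CPM in M5. Those ranges were apart, yet 0.21 ± 0.08 did not pass (edgeR adjusted p = 0.0526). DRAM1, a lysosomal membrane protein of autophagy, and ABHD4, a lipid hydrolase, each differed by 0.19. DRAM1 passed without M5 replicate 1 (0.28, edgeR adjusted p = 0.00113). TP53I3, a quinone oxidoreductase, SPATA18, a mitochondrial quality control protein, and ACER2, a Golgi ceramidase, lay between -0.06 and 0.03. Library size scaling brought the count of metabolic genes that were higher to 4 (with 0 lower), and the group's median stayed above 0 under all 18 alternatives (0.11 to 0.32).

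GDF15, a secreted stress cytokine of the TGF-β superfamily, had the largest change of the list. It measured 4.19, 5.69, 6.46 and 3.92 CPM in M5_O5 and 1.82, 2.55, 3.62 and 2.24 CPM in M5. The groups did not overlap, but M5_O5 replicate 4 and M5 replicate 3 came close, and each library held only 25 to 109 counts. The level rose 1.97-fold, with a log2 fold change of 0.98 ± 0.21 (edgeR adjusted p = 0.00276). It passed under all 18 alternatives, from 0.75 to 1.19, and so lay on either side of a 2-fold change depending on the setting.

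The targets differed far more in level than between the groups. On the length-corrected TPM scale, NINJ1 (121 TPM over the 8 libraries) and BTG2 (117 TPM) were the most abundant, followed by PHLDA3 at 77.1 TPM, TNFRSF10B at 61.8 TPM, SUSD6 at 57.5 TPM and DRAM1 at 56.6 TPM. The order of NINJ1 and BTG2, adjacent in this ranking, was not clear in either group. In M5_O5, NINJ1 at 106 ± 8.86 TPM and BTG2 at 111 ± 6.16 TPM (SD, n = 4) lay within each other's spread. In M5 the level of NINJ1 was 136 ± 14.2 TPM beside 122 ± 7.28 TPM for BTG2. These spreads also overlapped, and in M5 replicate 1 NINJ1 was the lower, at 115 against 130 TPM. The levels of SUSD6 and DRAM1 also lay within each other's range in M5, at 58.3 ± 3.77 and 50.6 ± 9.96 TPM. MDM2 was intermediate at 27.7 TPM. The least abundant tested gene was SPATA18 at 0.78 TPM, and CMBL and EDA2R were listed at 0.011 and 0.01 TPM. When all genes tested were ordered by CPM and divided into 4 equal bins, 5 of the 6 targets that fell (NINJ1, MDM2, BTG2, TNFRSF10B and SUSD6) and 0 of the 6 that rose were in the highest bin. That bin had a median log2 fold change of -0.11 over all its 3109 genes and of -0.21 over its 8 target genes. In the lowest bin, which held GDF15 and SPATA18, the median over all genes was 0.23. In the second lowest, with 14 targets, it was 0.10 over all genes and 0.05 over the targets, and in the next, with 6 targets, -0.02 and 0.12. After cyclic loess, which levels such trends between libraries, 6 of the 6 higher and 3 of the 6 lower targets still passed.

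**Figure D3:**
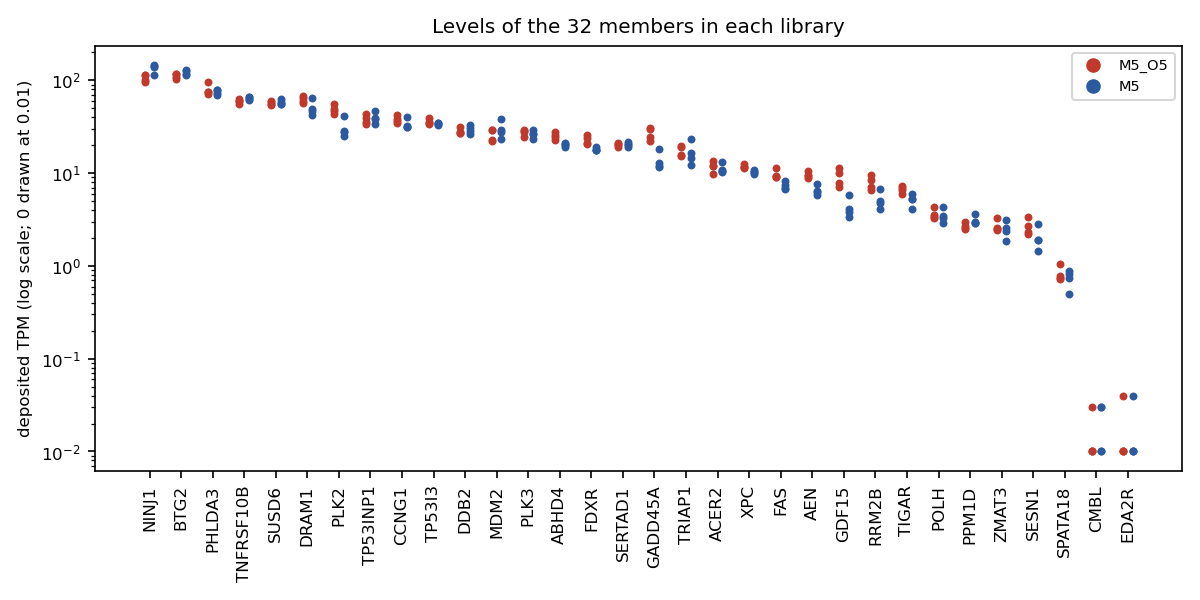
Deposited TPM, summed per gene and on a log scale, of all 32 target genes in each M5_O5 (red) and M5 (blue) library, ordered by mean level. Levels ran from 121 TPM for NINJ1 to 0.01 TPM for EDA2R, and the colours separate visibly for few genes, among them PLK2, GADD45A and GDF15.

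**Figure D4:**
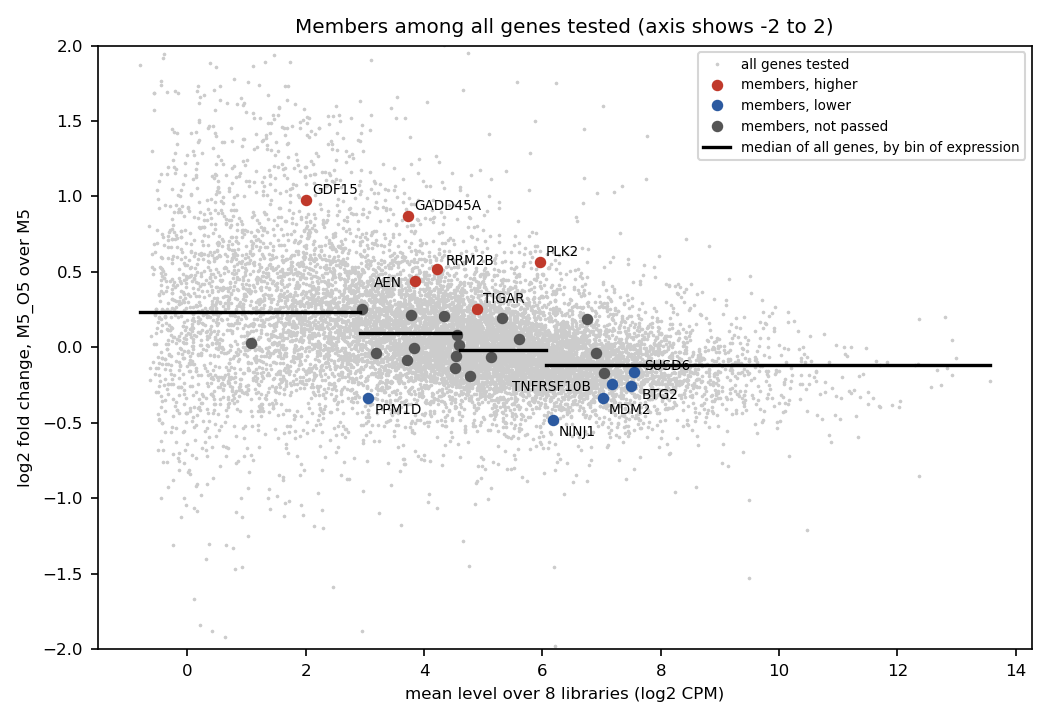
Log2 fold change of M5_O5 over M5 against mean level (log2 CPM) for the 12434 genes tested (grey) and the 30 target genes (red higher, blue lower, dark grey not passed), with black lines at the median of each of 4 bins of expression. The black lines step down from 0.23 to -0.11, and 5 of the 6 blue genes lie in the highest bin.

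The p53 relatives and the genes that control p53 moved in both directions. TP63 was at 556 to 615 CPM in M5_O5 and 702 to 728 CPM in M5. It fell by 0.29 on the log2 scale (SE 0.05, edgeR adjusted p = 0.000834), but did not pass after cyclic loess (limma adjusted p = 0.0695). A single transcript of the ΔN form, among 9 TP63 transcripts, held 71.1% of its counts. The share of all ΔN transcripts together was not computed. TP73, another family member, was at 3.98 to 5.51 CPM in M5_O5 and 3.55 to 6.64 CPM in M5 and did not pass (0.13, edgeR adjusted p = 0.613). MDM4, the MDM2 partner that masks the p53 activation domain, fell with MDM2, from 31.3 to 40.6 CPM in M5 to 22.6 to 25.1 CPM in M5_O5 (-0.55 ± 0.08, edgeR adjusted p = 0.000151). Of the 22 family and regulator genes, 6 were higher (27.3%, against 19.5% of all genes) and 8 lower (36.4%, against 17.6%). The other 8 did not pass, and the list's median of -0.10 changed sign with library size scaling (0.02) and on TPM (0.01). The lower count fell to 3 with library size scaling, on TPM or after cyclic loess, to 4 without M5 replicate 2, 3 or 4, and to 5 without M5_O5 replicate 1 or 4. The higher count fell to 4 without M5 replicate 3. The largest changes besides MDM4 were PPP1R13L, the inhibitor iASPP, at -0.53, and the damage kinases ATM at 0.57 and CHEK1 at 0.43. CHEK1 passed under all 18 alternatives and ATM under 16, with a largest adjusted p of 0.0826.

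CDKN1A, the cell cycle inhibitor p21 and the best known p53 target, was examined beside the list. It measured 945, 922, 933 and 945 CPM in M5_O5 and 1139, 1287, 1282 and 1298 CPM in M5. All M5_O5 libraries were below all M5 libraries, and p21 mRNA fell by 0.42 on the log2 scale (SE 0.06, edgeR adjusted p = 9.39e-05), which held under all 18 alternatives (-0.46 to -0.23). Another 30 direct p53 targets were written from general knowledge, with earlier results of these data known, and 28 were tested. Of these, 9 were higher (32.1%, against 19.5% of all genes) and 10 lower (35.7%, against 17.6%), with a median of 0.01. Among the largest changes were THBS1, a matrix glycoprotein, at 1.75, LIF, a cytokine of the IL-6 family, at 1.41, and TNFRSF10D, a decoy TRAIL receptor, at -0.74. Genes passing in both directions occurred in this wider list too. Both its shares were above those of all genes, while those of the target list were close to them.

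Genes that p53 represses indirectly, through p21 and the DREAM complex, were mostly higher in M5_O5. Of 20 such cell cycle genes 19 were higher (95%, against 19.5% of all genes), and the median was 1.12. Of these 19, 17 were past 2-fold, a step reached upward by 2.87% of all genes. Whether p53 or p21 had a part in this rise was not tested. M5 replicate 1 lay nearer to M5_O5 than the other M5 libraries did for genes such as TOP2A, a topoisomerase of dividing cells named after its values were seen, at 65.1 CPM against 24.3 to 27.3 CPM in the other M5 libraries and 66.7 to 78.9 CPM in M5_O5. Without M5 replicate 1, the list median was 1.48 and 19 genes were again higher. RRM2, the S phase subunit of ribonucleotide reductase, was at 8.50 to 11.1 CPM in M5_O5 and 1.43 to 3.72 CPM in M5 (2.22 ± 0.21, edgeR adjusted p = 4.76e-06), and MYBL2, a cell cycle transcription factor, changed by 2.12. The exception, named after its value was seen, was the replication helicase subunit MCM5, at 0.002. PBK, the gene of TOPK and itself a mitotic gene, measured 3.60, 2.93, 2.25 and 3.15 CPM in M5_O5 and 2.63, 0.588, 0.987 and 0.685 CPM in M5, a log2 fold change of 1.32 ± 0.34 (edgeR adjusted p = 0.00738). M5 replicate 1 lay within the M5_O5 range (exact permutation p = 0.0571), and the log2 fold change was 1.98 without it. OTS514 acts on the kinase protein, so the mRNA of PBK does not check the labels. Transcription factors of the ATF4 and integrated stress response list are also known inducers of GDF15, GADD45A and TNFRSF10B, and their part here was not tested. Of that list, 10 of 15 genes were higher (66.7%, against 19.5% of all genes) and 0 lower, with a median of 0.63. It was led by ASNS and PSAT1, enzymes of asparagine and serine synthesis, at 2.61 and 2.52. The factors ATF4, ATF3 and CEBPB, named after their values were seen, did not pass (0.20, 0.07 and 0.03). The factor DDIT3, also named afterwards, rose by 0.71 (edgeR adjusted p = 0.00634). Its M5_O5 replicate 1, at 22.3 CPM, lay within the M5 range of 21.7 to 27.0 CPM. M5_O5 replicate 1 was the lowest of its group for ASNS, at 2.50 CPM against 4.58 to 8.65 CPM in the others, and for CHAC1, a glutathione-degrading enzyme named after its values were seen, at 3.49 CPM against 13.3 to 23.5 CPM (M5 2.55 to 3.33 CPM). Without that library 11 genes of the list were higher and the median was 0.80, and 1 gene was lower without M5 replicate 1. Over the 18 alternatives these lists had 17 to 19 and 9 to 11 higher genes.

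**Figure D5:**
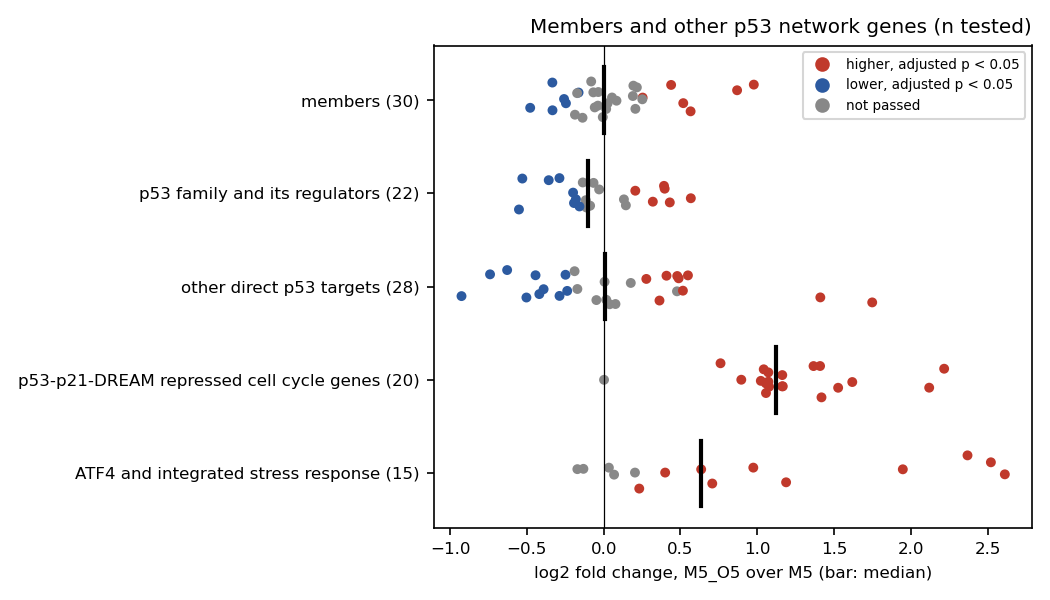
Log2 fold change of M5_O5 over M5 for each tested gene of the target list and of 4 other p53 network lists, with the number tested in brackets and a black bar at each median. Medians of the target list (0.01), of the regulators (-0.10) and of the other direct targets (0.01) lay near 0, with genes passing in both directions, while the cell cycle list (1.12) and the ATF4 list (0.63) lay to the right.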

How the data were processed

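RNA from 8 HaCaT cultures was sequenced, 4 titled M5_O5 and 4 titled M5. The study's methods state that filtered reads were mapped with HISAT2 and counted with StringTie. The deposited table gives, per transcript, an estimated count that is not normalized (53.8% of values are fractional), and TPM. The FPKM values and group means deposited by the authors were not used. The labels' processing notes also list Bowtie2 2.2.5, RSEM 1.2.8 and the mouse build mm10, although the identifiers are human. Which tool made the deposited counts is therefore not settled. The human build is not given in the sources used here. Estimated counts of 86639 transcripts were summed to 17131 genes (17072 with a symbol) and rounded. filterByExpr kept 12434 genes, which were scaled by TMM and compared with edgeR 4.0.16 (R 4.3.3) by the quasi-likelihood test with Benjamini-Hochberg adjustment at 0.05. The biological coefficient of variation was 7.42%. Totals ran from 13708055 to 16922693 counts. An exact permutation test, 2-sided, was added for single genes.

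The 32 genes and all other lists were chosen with earlier results of these data known. Values per library were given for the genes that passed, and the 2 largest changes in either direction were named in each other list, except for items that are not reported here. Exon overlaps were taken from GENCODE 29. Promoters were those of RefSeq, and 6 target genes had no window in the table used.

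Counts were also simulated for 12434 genes in the same comparison. There edgeR recovered 45 of 50 genes changed 1.5-fold, 49 of 50 changed 2-fold and 50 of 50 changed 3-fold, and called 13 unchanged genes. All called target genes except GDF15 and GADD45A changed by less than 1.5-fold. Changes that small were not simulated, so these counts do not say how often they are found or missed. Each result was recomputed with DESeq2 1.42.0, with other scalings and count filters, with limma 3.58.1 on log2(TPM + 1), on log2(TPM + 0.1) and after cyclic loess, with unadjusted p, with a replicate block and without each library.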

Additional observations from a re-analysis of the deposited data

Results flagged for a closer look

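In 8 of 72 groups of 4 libraries (36 genes in both groups), a single library lay far from the other 3 relative to the range of its group, where chance would give 3.6. Of these 8, 3 were M5 replicate 1, the library with the lowest total count. TNFRSF10B was at 117 CPM in M5_O5 replicate 1 and at 135 to 139 CPM in the other M5_O5 libraries. ZMAT3 was at 16.4 CPM in M5_O5 replicate 1, against 13.3 to 13.5 CPM. SPATA18 was at 2.67 CPM in M5_O5 replicate 3, against 1.69 to 1.84 CPM. TIGAR was low in a library of each group, at 29.5 CPM in M5_O5 replicate 3 (others 32.8 to 33.4 CPM) and at 23.1 CPM in M5 replicate 2 (others 27.97 to 28.8 CPM). In M5 replicate 1, CCNG1 was at 51.5 CPM (others 45.7 to 46.7 CPM), TP73 at 6.64 CPM (others 3.55 to 4.05 CPM) and CDKN1A at 1139 CPM (others 1282 to 1298 CPM).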

How the results depend on the processing

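The target genes GDF15, GADD45A, PLK2, RRM2B, AEN and NINJ1, kept their call under all 18 alternatives, and no called gene changed sign. The main counts were 6 higher, 6 lower and 0 past 2-fold in either direction. With library size scaling, 11 were higher, 2 lower and 1 past 2-fold higher. limma on log2(TPM + 1) left 1 lower gene, and log2(TPM + 0.1) left 1 lower and put 1 past 2-fold higher, while 9 were higher in both. Cyclic loess left 3 lower genes. Unadjusted p gave 10 higher and 8 lower. Leaving out each library gave 5 to 8 higher, 5 to 7 lower and 0 to 1 past 2-fold higher, the latter being GDF15 without M5_O5 replicate 1, M5_O5 replicate 4 or M5 replicate 3. DESeq2, RLE scaling and no filter gave 6 higher and 6 or 7 lower, and a minimum of 10 counts in every library gave 8 higher and 6 lower. Same-numbered libraries deviated with r of -0.004 to 0.21, and 3 of 8 correlated best with their own number, so the numbers were not taken as pairs, and the replicate block gave 8 higher and 7 lower (and 2 lower genes in the ATF4 list, against 0 without the block). Low counts limit GDF15 and SPATA18, and EDA2R and CMBL could not be tested. The causes of these shifts were not tested.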
